A study of Homo sapiens with 3 samples.

Results

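Interferon-stimulated genes were followed here as 9 named genes (ISG15, IFI6, IFI27, IFIT1, IFIT3, MX1, IRF9, IFITM1 and IFITM3) among 33423 gene rows in 3 single-cell libraries. The genes were taken by name, and a gene with no row in a library was counted as 0. All 9 had a row in LNCaP–ENZ168 and VCaP–ENZ48, and 8 had one in VCaP parental, where IFITM1 was absent. Drop-seq tags each captured mRNA molecule at its 3′ end with a cell barcode and a unique molecular identifier (UMI), so counts are molecules and levels are not compared per gene length. LNCaP and VCaP are prostate cancer cell lines, and enzalutamide (ENZ) is an androgen receptor inhibitor. The LNCaP–ENZ168 cells were LNCaP exposed to 10 µM ENZ over 168 h. The VCaP–ENZ48 cells were VCaP exposed to the same dose over 48 h, and the VCaP parental cells were VCaP exposed to 0.1% DMSO, the solvent of the drug, over 48 h. Each group was 1 library without replicates. No untreated LNCaP library was analysed here, so for LNCaP–ENZ168 the cell line, the treatment time and the preparation cannot be told apart.

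Type I interferons bind the receptor pair IFNAR1 and IFNAR2, whose kinases JAK1 and TYK2 activate the transcription factor complex ISGF3. It contains STAT2 and IRF9 and binds the interferon-stimulated response element (ISRE) in front of antiviral genes. Genes of this kind are also expressed at a basal level in many cell types and tumours without infection.

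Promoter sequences are shown for ISG15, IFI6 and IFITM3, which had the most UMIs, for the neighbours IFIT1 and IFIT3, and for IRF9, a subunit of ISGF3. RefSeq windows on GRCh38.p14, from 250 bases before to 50 bases after a start site, were searched on both strands for the core of the ISRE, GAAANNGAAA. It occurred in 1255 of 35116 windows of all genes (3.57%) and in 11 of 13 windows of the members. The runs below are written on the strand of the gene and end before its RefSeq start site, and the capitals mark each match or its reverse complement. That of ISG15 lies at chr1:1013364-1013419 on the plus strand, that of IFI6 at chr1:27672256-27672368 on the minus strand, and that of IFIT1 at chr10:89392497-89392539 on the plus strand. The IFIT3 run, from the first of its 2 windows, is at chr10:89327821-89327904 on the plus strand, and the IFITM3 run at chr11:320866-320932 on the minus strand.

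ISG15: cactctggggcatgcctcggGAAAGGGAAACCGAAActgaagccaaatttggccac
IFI6: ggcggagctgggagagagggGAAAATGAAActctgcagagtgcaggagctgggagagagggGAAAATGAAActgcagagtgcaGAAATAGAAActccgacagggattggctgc
IFIT1: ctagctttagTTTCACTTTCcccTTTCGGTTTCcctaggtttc
IFIT3: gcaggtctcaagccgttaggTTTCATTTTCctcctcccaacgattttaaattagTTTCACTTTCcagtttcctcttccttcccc
IFITM3: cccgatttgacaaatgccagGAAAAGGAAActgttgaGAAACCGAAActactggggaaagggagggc

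IFI6 carried 3 matches and the other genes shown 2 each, and those of ISG15, starting 113 and 107 bases before its start site, overlapped each other. MX1, not shown, had a match in 2 of its 3 windows. IRF9 had no match to the ISRE core in its window. It held 1 match to the GAS motif TTCNNNGAA, an element of promoters that respond to interferon gamma, 63 bases before its start (chr14:24161192-24161220, plus strand), which is shown in capitals. GAS occurred in 2689 of the 35116 windows (7.66%) and in 5 of the 13 member windows, the others being those of IFI27, MX1 and IFITM1. The GAS matches of IFI27, MX1 and IFITM1 each overlap an ISRE core match already counted, so they are not a separate excess. Matches in the 2 IFI27 windows have the same spacing and may be the same sites counted again for both motifs. A match is a description of the letters and not of binding.

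IRF9: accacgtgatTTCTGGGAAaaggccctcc

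In Gencode on GRCh38, ISG15 spans positions 1001138 to 1014540 of chromosome 1 and IFI6 spans 27666064 to 27672212. IFI27 spans 94104836 to 94116695 and IRF9 24161234 to 24168043 of chromosome 14. IFIT3 (89327307 to 89377473) and IFIT1 (89392546 to 89406487) are neighbours on chromosome 10, and IFITM1 (310041 to 315272) and IFITM3 (319676 to 329475) on chromosome 11. MX1 spans 41420020 to 41470071 of chromosome 21. By these spans the runs shown for ISG15, IFIT3 and IFITM3 lie inside their genes, outside exons. All 29 bases of the IRF9 run lie in exons of ENSG00000259529. Some members share sequence with other genes, and their counts are uncertain where the counting could split or drop reads. Of the 50-base stretches of the IRF9 transcript, 92.8% also occur in the overlapping gene ENSG00000259529. The share was 55.1% for IFITM1, of which most (50.7%) occur in the overlapping gene ENSG00000288681. It was 20.8% for IFITM3, mostly with IFITM1 (17.4%), and 21.9% for IFI6 with LINC02574. TMPRSS2 overlaps MX1 on the opposite strand in 562 of its 17984 exon bases, and LIPA overlaps IFIT3 in 94 of 5067.

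After filtering, 944 to 997 cells per library were kept, with 6313283 UMIs in LNCaP–ENZ168, 14301287 in VCaP–ENZ48 and 19515202 in VCaP parental and medians of 5389 to 17817 UMIs per cell. The kept cells shared no barcode between libraries. All 8 prostate line markers were present in every library, and ERG, which VCaP expresses from a fusion gene, had 0 UMIs in LNCaP–ENZ168. Of 10 markers of immune, stromal and endothelial cells, 2, 4 and 7 were at 0 in VCaP parental, VCaP–ENZ48 and LNCaP–ENZ168. Summed, those 10 were at 2.72, 3.50 and 3.80 CPM, the UMIs of a gene scaled to a fixed library total of 1e6. Barcodes ending in N in place of a base made up 86.2% and 86.6% of cells in the VCaP libraries and 21.7% in LNCaP–ENZ168. What the N stands for is not stated.

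The 9 genes were low in all 3 libraries. Their summed level was 92.3 CPM in VCaP parental (exact Poisson 95% interval 88.1 to 96.7, 1802 UMIs), 85.4 CPM in VCaP–ENZ48 (80.7 to 90.3, 1221 UMIs) and 249.6 CPM in LNCaP–ENZ168 (237 to 262, 1576 UMIs). ISG15, IFI6 and IFITM3 supplied 94.4%, 86.7% and 95.3% of these UMIs. The interval of LNCaP–ENZ168 lay above those of both VCaP libraries, which overlapped each other. With TMM scaling, which sets typical genes equal between libraries, the sums were 119, 90.3 and 183 CPM, and VCaP parental was then also above VCaP–ENZ48. Intervals here and below are at 95% and cover counting error only.

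IRF9, the DNA-binding subunit of ISGF3, was at 0.666 CPM in VCaP parental (0.355 to 1.14, 13 UMIs), 4.75 CPM in VCaP–ENZ48 (3.69 to 6.03, 68 UMIs) and 1.90 CPM in LNCaP–ENZ168 (0.982 to 3.32, 12 UMIs). VCaP–ENZ48 stood above the other libraries, whose intervals overlapped. It was the single member whose highest library, apart from both others, was not LNCaP–ENZ168.

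ISG15, a ubiquitin-like protein that is attached to other proteins, had 1090 UMIs in VCaP parental, which gave 55.9 CPM (52.6 to 59.3). It was at 31.7 CPM in VCaP–ENZ48 (28.8 to 34.7, 453 UMIs) and at 99.2 CPM in LNCaP–ENZ168 (91.5 to 107, 626 UMIs). No interval overlapped another, and VCaP–ENZ48 was the lowest. With TMM scaling VCaP parental (72.2 CPM) and LNCaP–ENZ168 (72.5 CPM) were level, and VCaP–ENZ48 stayed the lowest (33.5 CPM).

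IFI6, a small membrane protein that restrains cell death, ran in another order. It was at 7.94 CPM in VCaP parental (6.74 to 9.30, 155 UMIs), 14.7 CPM in VCaP–ENZ48 (12.8 to 16.8, 210 UMIs) and 35.5 CPM in LNCaP–ENZ168 (31.0 to 40.4, 224 UMIs). All 3 intervals were again apart, also with TMM scaling (10.3, 15.5 and 26.0 CPM).

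The membrane proteins IFITM1 and IFITM3 block the fusion of viruses with the cell. IFITM3 was at 23.4 CPM in VCaP parental (21.3 to 25.6, 456 UMIs), 27.6 CPM in VCaP–ENZ48 (24.96 to 30.5, 395 UMIs) and 103 CPM in LNCaP–ENZ168 (95.5 to 112, 652 UMIs). The VCaP libraries overlapped and LNCaP–ENZ168 was above both. IFITM1 had no row in VCaP parental, where the limit of 3 counts for 0 UMIs is 0.154 CPM, and 2 and 6 UMIs in VCaP–ENZ48 and LNCaP–ENZ168 (0.140 and 0.9504 CPM).

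MX1, a GTPase that traps viral particles, was at 1.95 CPM in VCaP parental (1.38 to 2.67, 38 UMIs), 2.73 CPM in VCaP–ENZ48 (1.94 to 3.73, 39 UMIs) and 5.39 CPM in LNCaP–ENZ168 (3.73 to 7.53, 34 UMIs). The VCaP libraries overlapped, and LNCaP–ENZ168 lay just above VCaP–ENZ48 but overlapped it with TMM scaling. TMPRSS2, which overlaps MX1, was at 26.8, 16.8 and 97.6 CPM in the same order, and its part in the MX1 counts was not tested.

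The IFIT proteins bind viral RNA. IFIT1 was at 1.43, 1.40 and 2.38 CPM in VCaP parental, VCaP–ENZ48 and LNCaP–ENZ168 (28, 20 and 15 UMIs), with intervals that all overlapped. IFIT3 was at 0.769 CPM in VCaP parental (0.430 to 1.27, 15 UMIs), 2.31 CPM in VCaP–ENZ48 (1.59 to 3.24, 33 UMIs) and 0.792 CPM in LNCaP–ENZ168 (0.257 to 1.85, 5 UMIs). VCaP–ENZ48 was above VCaP parental but overlapped LNCaP–ENZ168. IFI27, a small mitochondrial protein, had 7, 1 and 2 UMIs, and its libraries could not be ordered at this depth.

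By library, LNCaP–ENZ168 was highest for 6 members and apart from both other libraries for 4 of them (ISG15, IFI6, MX1 and IFITM3). VCaP–ENZ48 was highest for IRF9 and IFIT3, and VCaP parental for IFI27. The share of all genes that were highest or apart in each library was not taken, so these counts are not set against it. At this scaling the median gene was itself higher in LNCaP–ENZ168 than in VCaP–ENZ48, by a log2 ratio of 0.67. With TMM or median-of-ratios scaling LNCaP–ENZ168 was apart from both for 2 members, IFI6 and IFITM3, and VCaP–ENZ48 for IRF9 and IFIT3.

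**Figure D1:**
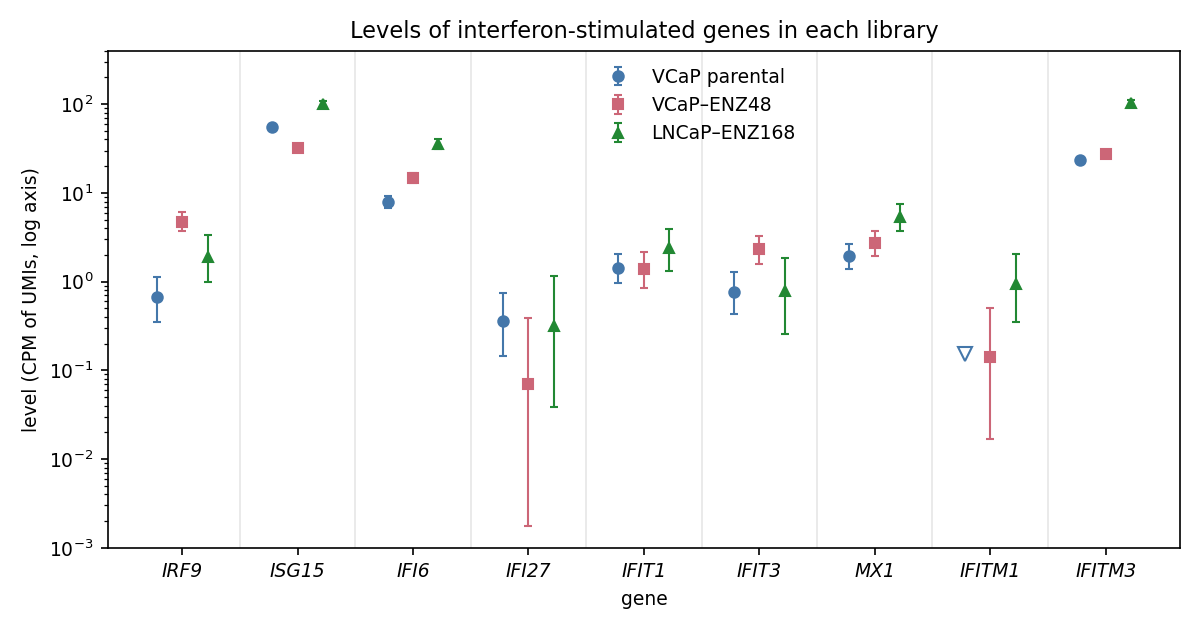
Level of each gene in CPM of UMIs (log axis) in VCaP parental (circles), VCaP–ENZ48 (squares) and LNCaP–ENZ168 (triangles). Values are scaled to the library total. Bars are exact Poisson 95% intervals for counting error, and the open marker is the limit of 3 counts for 0 IFITM1 UMIs in VCaP parental. LNCaP–ENZ168 is highest for 6 genes and VCaP–ENZ48 for IRF9 and IFIT3. At this scaling the median gene is also higher in LNCaP–ENZ168 than in VCaP–ENZ48.

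The VCaP libraries address what 48 h of ENZ went along with in 1 cell line. Each gene was given as the log2 ratio of its CPM, less the log2 ratio of the median gene among those with a mean of at least 10 CPM in the pair. Genes with such a mean were compared, and a gene was called higher or lower at a 2-fold difference or more. The median gene was at -0.07 before this step. ISG15 was lower after ENZ, by a relative log2 ratio of -0.75 (-0.91 to -0.59, 1.68-fold lower). IFI6 was higher, at 0.95 (0.65 to 1.26, 1.94-fold), and IFITM3 at 0.31 (0.11 to 0.51, 1.24-fold).

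Of the 3 members with enough counts to be compared, 0 were called higher and 0 lower, against 9.6% of 7729 genes called higher and 6.28% called lower. Their median was 0.31, and the middle 50% of all compared genes ran from -0.38 to 0.42. The ISG15 ratio was at the 10.9 percentile of those genes and the IFI6 ratio at the 89.7 percentile. IFI6 was just under the threshold, and its relative log2 ratio was 1.05 without barcodes above 3 times the median depth.

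The remaining members were below the 10 CPM minimum and are given with their intervals. IRF9 stood 7.48-fold higher in VCaP–ENZ48, a relative log2 ratio of 2.90 (2.03 to 3.88). IFIT3 was 3.15-fold higher, at 1.65 (0.73 to 2.64). With a pseudocount of 1 CPM the IRF9 ratio was 1.85, and over the alternatives the IFIT3 ratio ran from 0.97 to 3.65. MX1 was at 0.55 (-0.13 to 1.24), IFIT1 at 0.03 (-0.87 to 0.91) and IFI27 at -2.29 (-7.78 to 0.67), and these 3 intervals hold 0. IFITM1 had too few UMIs for a ratio. Over the 8 members with a ratio the median was 0.43.

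Between LNCaP–ENZ168 and VCaP–ENZ48, which both held ENZ-treated cells, the median of 8854 compared genes was a log2 ratio of 0.67 before it was set to 0. The folds below are therefore smaller than those of the levels above. IFITM3 was 2.34-fold higher in LNCaP–ENZ168, at a relative log2 ratio of 1.23 (1.05 to 1.41). ISG15 was 1.963-fold higher, at 0.97 (0.80 to 1.15), and IFI6 1.52-fold, at 0.60 (0.32 to 0.88).

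Of the 3 compared members 1 was called higher (IFITM3) and 0 lower, against 16.4% of all genes called higher and 19% called lower. Their median was 0.97, and the middle 50% of all compared genes ran from -0.72 to 0.67. ISG15 was just under the threshold and passed it with TMM or median-of-ratios scaling, which compare a different set of genes. With only the barcodes ending in N the IFI6 ratio was 0.08, below its interval.

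IRF9 and IFIT3, below the minimum, were lower in LNCaP–ENZ168. IRF9 was 3.99-fold lower, at a relative log2 ratio of -2.00 (-3.02 to -1.10), and IFIT3 4.65-fold lower, at -2.22 (-3.93 to -0.85). Over the alternatives the IRF9 ratio ran from -3.32 to -1.20. The intervals of MX1 (0.31), IFIT1 (0.09), IFI27 (1.51) and IFITM1 (2.09) hold 0. Both comparisons use VCaP–ENZ48, so a high or low count there moves both in opposite directions.

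**Figure D2:**
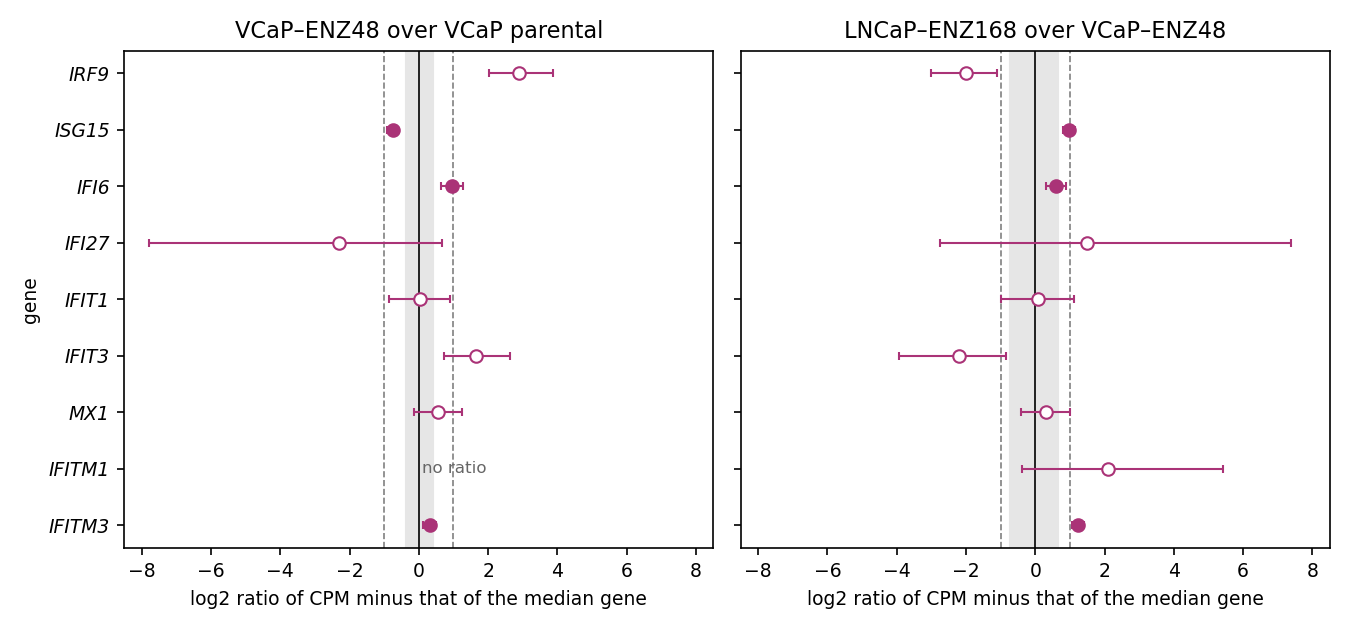
Relative log2 ratio of each gene for VCaP–ENZ48 over VCaP parental (left) and LNCaP–ENZ168 over VCaP–ENZ48 (right), with exact 95% counting intervals. Filled points have a mean of at least 10 CPM, dashed lines mark a 2-fold difference, and the grey band is the middle 50% of all compared genes. ISG15 lies below 0 on the left and above 0 on the right, and IRF9 and IFIT3 do the opposite.

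The genes that signal to the members, and further genes of the pathway, were taken from a list of 98. Of these, 85 were found, 1 of them under an older symbol, and 9 of the 10 interferon genes were not found. The receptor IFNAR1 was at 248 CPM in VCaP parental (241 to 256), 206 CPM in VCaP–ENZ48 (198 to 213) and 114 CPM in LNCaP–ENZ168 (106 to 123). IFNAR2 was at 17.1, 21.3 and 15.5 CPM. LNCaP–ENZ168 was the lowest for both, with an IFNAR2 interval (12.6 to 18.9) that overlapped that of VCaP parental (15.3 to 18.998).

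The kinase JAK1 was at 21.4, 27.4 and 10.1 CPM in VCaP parental, VCaP–ENZ48 and LNCaP–ENZ168, and TYK2 at 4.82, 5.31 and 13.3 CPM. LNCaP–ENZ168 was thus the lowest library for JAK1 and the highest for TYK2. STAT2 was at 10.2 CPM (8.88 to 11.8), 18.9 CPM (16.8 to 21.3) and 30.1 CPM (26.0 to 34.7), the same order as IFI6. With TMM scaling the STAT2 intervals of VCaP–ENZ48 and LNCaP–ENZ168 overlapped.

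In the VCaP pair 32 genes of the list were compared, and 6 were called higher and 0 lower in VCaP–ENZ48, which is 18.75% higher beside 9.6% of all compared genes. Their median was 0.42, with 22 above 0 and 10 below. The 3 highest were IFI27L2, a relative of IFI27 (relative log2 ratio 2.11, 1.76 to 2.47), the nuclear body protein SP110 (1.66, 1.36 to 1.963) and the ADP-ribosyltransferase PARP14 (1.26, 1.02 to 1.497). LY6E, SP100 and IRF3, named after their values were seen, were at 1.21, 1.13 and 1.10. Of these 6, 5 are effectors, out of 16 effectors compared. The lowest were PNPT1 (-0.83), TBK1 (-0.71) and IFI27L1 (-0.68), none past the threshold. STAT2 was at 0.96 (0.69 to 1.23).

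Between LNCaP–ENZ168 and VCaP–ENZ48, 37 genes of the list were compared, with 5 called higher and 13 lower in LNCaP–ENZ168 and a median of -0.01. These are 13.5% and 35.1%, beside 16.4% and 19% of all compared genes. IFITM2, a close relative of IFITM3, was highest at a relative log2 ratio of 5.22 (4.27 to 6.37), from 9 UMIs in VCaP–ENZ48 and 236 in LNCaP–ENZ168. The kinase JAK2 followed at 3.49 (2.96 to 4.06) and the capsid-binding protein TRIM5 at 2.37 (1.87 to 2.90). ISG20 (2.23) and TRIM21 (1.89), named after their values were seen, completed the 5.

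The lowest was NMI, an interferon-induced protein, with 1 UMI in LNCaP–ENZ168 against 287 in VCaP–ENZ48 (-7.66, -12.97 to -5.17). The surface protein LY6E was at -3.67 (-4.02 to -3.35) and PARP14 at -2.82 (-3.33 to -2.34). All 4 compared receptors were called lower, with relative log2 ratios of -1.52 for IFNAR1, -1.13 for IFNAR2 and, named after their values were seen, -1.22 for IFNGR1 and -1.42 for IFNGR2. JAK1 was at -2.11 (-2.51 to -1.72) and STAT2 at -0.01 (-0.28 to 0.27).

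**Figure D3:**
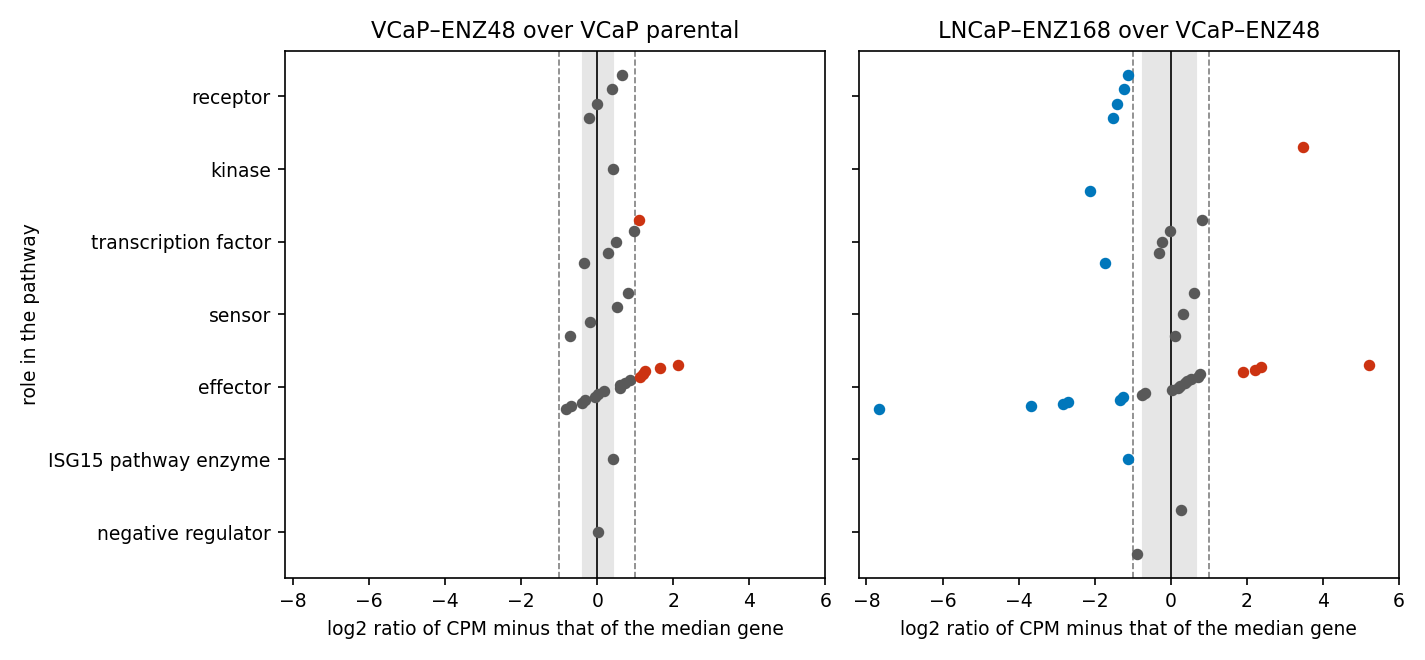
Relative log2 ratio of each compared gene of the wider interferon list by role, for VCaP–ENZ48 over VCaP parental (left, 32 genes) and LNCaP–ENZ168 over VCaP–ENZ48 (right, 37 genes). Red points were called higher and blue points lower at 2-fold (dashed lines), and the grey band is the middle 50% of all compared genes. On the left 6 genes are red and 0 blue, and on the right 5 are red and 13 blue, among them all 4 receptors.

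Depth differed between libraries, and every cell was therefore thinned at random to 2000 UMIs before shares were taken, which left out 0, 30 and 1 cells of VCaP parental, VCaP–ENZ48 and LNCaP–ENZ168. At least 1 UMI of a member was seen in 15.5% of VCaP parental cells (exact binomial 95% interval 13.4 to 17.9%), 15.9% of VCaP–ENZ48 cells (13.6 to 18.5%) and 38.3% of LNCaP–ENZ168 cells (35.2 to 41.5%). Without thinning the shares were 77.1%, 57.2% and 69.1%. The order of the libraries thus depended on depth, and at equal depth the VCaP libraries overlapped. All cells of a library are of 1 line, so the share that free RNA gives in cells without these genes was not measured.

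ISG15 was seen in 9.23% of thinned VCaP parental cells (7.50 to 11.2%), 6.22% in VCaP–ENZ48 (4.74 to 7.98%) and 18.9% in LNCaP–ENZ168 (16.4 to 21.5%). IFITM3 was seen in 4.31%, 4.80% and 17.5% of cells, and IFI6 in 1.81%, 3.16% and 7.10%. LNCaP–ENZ168 was above both VCaP libraries for each of the 3. Genes in general were also seen more widely there. Outside the members, 4619, 4598 and 5950 genes were seen in at least 5% of thinned VCaP parental, VCaP–ENZ48 and LNCaP–ENZ168 cells. Thinning sets the UMIs of cells equal and not the levels of typical genes. The shares of the members were not set against those of all genes. No other member passed 1.20% of cells, which IRF9 reached in VCaP–ENZ48. In VCaP parental IRF9 had a UMI in 13 of 997 cells (1.30%) before thinning and in 0 of 997 after it, where the limit of 3 counts is 0.301% of thinned cells.

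Cells with UMIs of several members were then counted. In VCaP parental 7 thinned cells held 2 members and none held more, and the product of the separate shares gives 7.55 cells with 2 or more. In VCaP–ENZ48 the numbers were 8 counted and 8.99 from the product, and in LNCaP–ENZ168 66 and 58.9. ISG15 and IFITM3 were seen together in 39 LNCaP–ENZ168 cells, where the product of their shares gives 31.1. ISG15 and IFI6 met in 0, 1 and 16 cells of VCaP parental, VCaP–ENZ48 and LNCaP–ENZ168, with products of 1.66, 1.80 and 12.6.

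Over cells, the median Pearson correlation of log-transformed thinned UMIs between members was -0.004 over 21 pairs in VCaP parental, -0.008 over 21 pairs in VCaP–ENZ48 and -0.003 over 28 pairs in LNCaP–ENZ168. The highest were 0.099, 0.085 and 0.112, each resting on 1 cell with both genes. At counts this sparse a weak correlation is no finding. IFI6 was the most uneven member, with a variance 1.45 times its mean in thinned LNCaP–ENZ168 cells, where ISG15 was at 1.17 and IFITM3 at 0.986. A single LNCaP–ENZ168 cell of 3122 UMIs held 10 IFI6 UMIs and none of another member, and another of 15014 UMIs held 9. Without the 1% of cells richest in member UMIs, IFI6 was at 33.2 CPM in LNCaP–ENZ168 in place of 35.5.

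**Figure D4:**
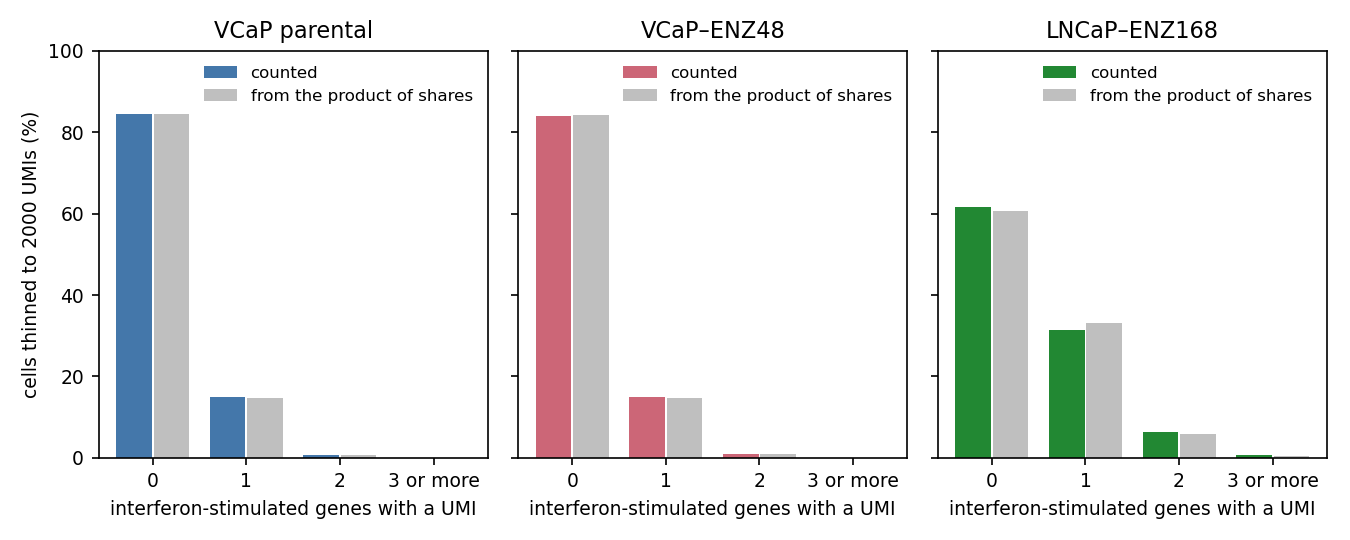
Share of cells, each thinned to 2000 UMIs, with UMIs of 0, 1, 2 or 3 and more of the 9 genes. Coloured bars are counted cells and grey bars the share given by the product of the genes' separate shares in that library. Counted and grey bars are close in all 3 libraries, with 66 counted cells against 58.9 for 2 or more genes in LNCaP–ENZ168.

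The genes whose thinned UMIs followed the summed members most closely differed by library. They were TOPORS, MYEF2, USE1, SLC36A4 and COX7B in VCaP parental (r 0.102 to 0.118 over 997 cells) and INIP, INSIG1, HOOK1, CPLANE1 and TTC19 in VCaP–ENZ48 (0.118 to 0.133 over 917 cells). In LNCaP–ENZ168 they were RPL27, RPL23, RPL19, RPS14 and COX6A1, 4 ribosomal protein genes and a respiratory chain gene (0.202 to 0.216 over 943 cells). The points are cells of 1 library and share its depth, and no gene was in more than 1 of the 3 sets. The named genes were the highest of 4619, 4598 and 5950 genes in VCaP parental, VCaP–ENZ48 and LNCaP–ENZ168. The lowest r of those genes were -0.095, -0.102 and -0.158. In the VCaP libraries the highest and lowest r were thus of similar size, and the names there are no finding.

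Cells with at most 4 thinned UMIs of 97 S and G2M genes were also taken apart. They numbered 99 in VCaP parental, 595 in VCaP–ENZ48 and 218 in LNCaP–ENZ168. Within each library the ISG15 level was close in these and the remaining cells, at 58.5 and 55.6 CPM in VCaP parental, 30.6 and 33.8 CPM in VCaP–ENZ48 and 107 and 96.5 CPM in LNCaP–ENZ168, with overlapping intervals. In these cells alone the relative log2 ratio of VCaP–ENZ48 over VCaP parental was -0.86 for ISG15, 1.496 for IFI6 and 3.11 for IRF9. IFITM3 was at 0.66 and IFIT1 at 1.46 in the same cells. The VCaP parental side of these ratios rests on 10 IFI6, 1 IRF9, 1 IFIT1 and 32 IFITM3 UMIs. The ratios of IFI6, IFITM3 and IFIT1 there lay above their intervals over all cells. No intervals were taken for the ratios of these few cells, so a shift was not established. The member median was 0.66 in place of 0.31.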

How the data were processed

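Drop-seq libraries of LNCaP–ENZ168, VCaP parental and VCaP–ENZ48 were measured, 1 each. The authors aligned reads to GRCh38 and counted with the Drop-seq tools on Gencode genes with default settings, and deposited unnormalised UMI counts for each gene in 1000 barcodes per file. Whether strand was used is not stated. Cells with at least 300 genes, 500 UMIs and at most 25% mitochondrial UMIs were kept. Doublets were not identified. UMIs were summed per library and scaled to CPM. A gene with 0 UMIs in 1 library was set to 3 counts for its ratio, and a ratio was left out where the other count was 3 or fewer. Intervals are exact Poisson, conditional binomial and Clopper-Pearson, at 95%. With 1 library per group no test was made and cells were not replicates.

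The members and lists were chosen with earlier results of these data known. Named genes were the members, JAK1, TYK2, STAT2, IFNAR1 and IFNAR2, the 3 highest and 3 lowest ratios of the wider list per comparison, the 5 genes per library closest to the summed members, among those in at least 5% of thinned cells, and label check genes. A gene that the rule also names is not reported here. Gene positions and transcripts came from a later Gencode version than the authors used, on the same build. Alternatives covered the cell filter, scaling (TMM, median-of-ratios, total without mitochondrial and ribosomal protein genes), minimum, threshold and thinning. Member ratios were not taken again under the other minimum values. The steps were tested on simulated data. Tools were Python 3.11.15, numpy 2.4.6, scipy 1.17.1, pandas 2.3.3 and matplotlib 3.10.9, and R 4.3.3 with edgeR 4.0.16 (TMM) and DESeq2 1.42.0 (median-of-ratios) for scaling alone.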

Additional observations from a re-analysis of the deposited data

How the results depend on the processing

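No paired analysis was possible because there was a single library per group. Under the alternatives below, the number of genes compared and the share of all genes called were not taken. The counts called are therefore not set against such a share. A change of the minimum also moves the median gene to which the ratios are relative. With a mean of at least 1 CPM, 2 members were called higher and 1 lower in VCaP–ENZ48 over VCaP parental, and 2 higher and 2 lower in LNCaP–ENZ168 over VCaP–ENZ48, with a member median of 0.42 in the latter. The wider list then had 2 lower and a median of 0.16 in the VCaP pair, and 9 higher, 23 lower and a median of -0.35 in the other. With at least 50 CPM, 2 members were higher between LNCaP–ENZ168 and VCaP–ENZ48 (median 1.21). The wider list had 1 higher (median 0.16) in the VCaP pair and 0 higher and 3 lower (median -0.66) in the other. At a 1.5-fold threshold 1 member was higher and 1 lower in the VCaP pair and 3 were higher in the other, and the wider list had 13 higher and 3 lower in the VCaP pair and 9 higher in the other. In the VCaP pair 1 member was called higher without barcodes above 3 times the median depth and with equal weight for each cell. Between LNCaP–ENZ168 and VCaP–ENZ48, 2 were called higher with TMM and with median-of-ratios scaling. The wider list's median there was -0.51 when mitochondrial and ribosomal protein genes were left out of the total, and -0.51 with only barcodes ending in N.

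Shares of cells with a member UMI in VCaP parental, VCaP–ENZ48 and LNCaP–ENZ168 were 8.73%, 6.55% and 20.8% at 1000 UMIs, 28.2%, 27.3% and 57.1% at 4000 UMIs, and 77.1%, 57.2% and 69.1% without thinning. A second thinning gave 18.0% in VCaP parental. Barcodes ending in N gave 35.1% in LNCaP–ENZ168. The alternatives on barcode ends and cell cycle genes, and those for the wider list, were chosen after seeing the data. In cells low in cell cycle genes, 1 member (IFI6) was higher in the VCaP pair (median 0.66), from 10 IFI6 UMIs in VCaP parental. In the same cells 2 were higher in LNCaP–ENZ168 over VCaP–ENZ48, and the share in LNCaP–ENZ168 was 28.9%. The cause of these shifts was not tested. The 1 called member ratio, that of IFITM3 in LNCaP–ENZ168 over VCaP–ENZ48, did not change sign. Of 233 member ratios under the alternatives, 224 stayed within their counting interval, and ISG15, IFI6, IFIT3, IRF9 and IFITM3 kept their sign in all 14 alternatives of both comparisons. Some alternatives could hardly move a ratio, so these counts overstate how far the ratios were tried. A minimum of 1000 UMIs per cell left them as they were. TMM, median-of-ratios and the total without mitochondrial and ribosomal protein genes act on them only through the set of genes compared. In the VCaP pair IFIT1 changed sign in 2 alternatives and MX1 in 1. In the other comparison IFIT1 changed sign in 4, IFI27 in 2, and MX1 and IFITM1 in 1 each. Depth limits IFI27 and IFITM1 most, with at most 7 UMIs in any library.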
